A study of Rattus norvegicus with 16 samples.

Results

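The 92 genes described here had among the largest rises in median level after nerve injury in both wild-type (WT) and LPA4-knockout (KO) rats. The tissue was the lumbar spinal dorsal horn. These genes were chosen from 30560 Ensembl gene IDs by the size of the rise, whether or not sham and injury libraries overlapped. A level is given as CPM, a gene's count divided by the column total of its library and scaled up to the usual common total, and 13946 IDs had a mean of 1 CPM or more over the 16 libraries. For each genotype, the median of log2(CPM + 0.5) in sham was subtracted from that after injury, and IDs were ranked by the smaller of these differences. Of the 100 highest IDs, 8 were set aside by name, which left 92. The injury difference chose these genes, so it is described below without a test.

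The 4 groups were WT sham, WT after spared nerve injury (SNI), KO sham and KO after SNI, with 4 libraries of poly(A) RNA each, all taken 28 days after surgery. The KO rats lack LPA4, a G protein-coupled receptor that binds the signalling lipid lysophosphatidic acid, and no other allele or agent is named for any group. The titles of the 4 KO sham libraries read LPA4-KO and then WT, in the place where the other titles name the operation. They were taken as KO sham because their columns in the count table are headed so, and what WT stands for there is not known. The sources used here do not give strain, age, sex or the way the knockout was made. Nor do they say whether libraries came from separate rats, so the p-values rest on the spread between libraries, which may be technical.

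In SNI, branches of the sciatic nerve are cut while a neighbouring branch is spared, and the hind paw becomes lastingly hypersensitive. The lumbar dorsal horn receives the sensory fibres of that limb. In nerve injury models of this kind, microglia of the dorsal horn become reactive and express more genes of the immune system, and astrocytes follow. The files pair no ID with a name, and a symbol was found for 0 of the 30560 IDs, so it cannot be said which of the 92 genes belong to such cells. Marker genes of the dorsal horn could not be checked for the same reason. IDs are printed for 4 genes, and the other genes are given by their rank among the 92. In bulk RNA, fewer or more cells of a type and less or more RNA per cell cannot be told apart.

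Library totals ran from 15790243 to 28090152 counts. WT sham replicate 2, with the lowest total, and KO SNI replicate 1, with the highest, stood apart: their median correlations with the other libraries were 0.949 and 0.973, against 0.982 to 0.990 for the rest. The main counts over the 92 genes are also given without one or both of them. The targeted gene could not be looked up, but exactly 1 ID was at 0 counts throughout the 8 KO libraries while each WT library held 10 or more, and the mirror image was found for 0 IDs.

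Most of the 92 genes were expressed at a low level and differed by less than a doubling. Their mean level had a median of 4.77 CPM, against 23.2 CPM over all 13946 IDs. Only 23 of the 92 had a mean of 10 CPM or more, as did 70.5% of all IDs. The smaller of the 2 injury differences was 1 or more on the log2 scale, a doubling, in 13 genes and less in 79. The median injury difference was 0.77 in WT and 0.74 in KO, and 0.02 and -0.00067 over all IDs. A fixed 0.5 is added to every level, which makes the differences of the lowest genes smaller. Choosing the highest of 13946 IDs by these same differences works the other way, since it favours values that came out large. Which of these weighs more was not tested.

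The 100 highest IDs ended at 0.56 on the log2 scale. The last genes inside had smaller differences of 0.569, 0.568 and 0.562, and the first IDs outside had 0.558, 0.557 and 0.555. The place of this end was therefore set by the rule, with no break in the values. The opposite pattern was rarer: 10 IDs were lower after SNI by as much in both genotypes, against 100 that were higher. The 8 IDs set aside had median differences of 1.07 in WT and 1.18 in KO and a median level of 34.1 CPM.

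**Figure D1:**
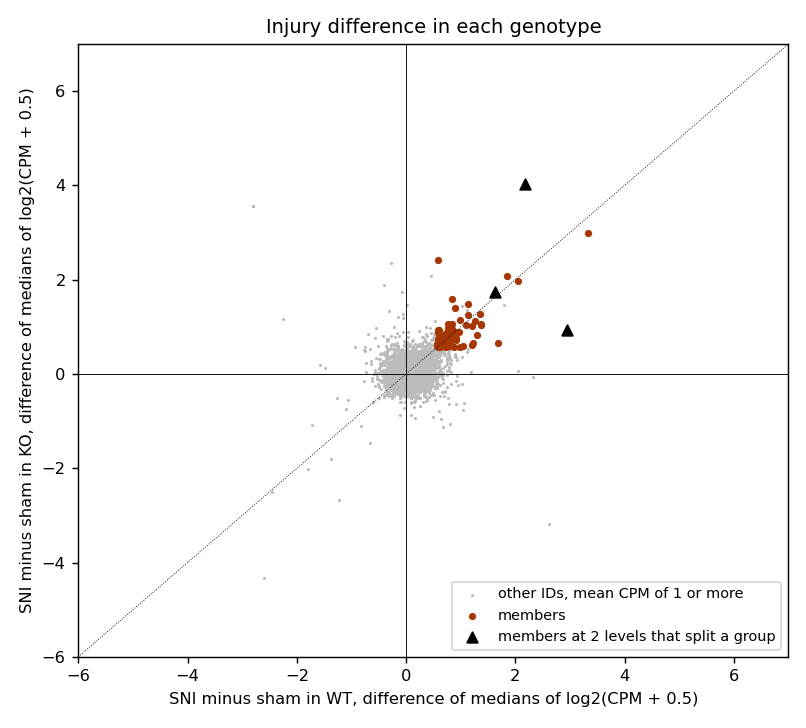
Difference between the SNI and sham medians of log2(CPM + 0.5) in WT (horizontal axis) and KO (vertical axis) for 13946 IDs. The 92 genes (brown points and black triangles) fill the upper right corner, both values being above 0.56, and 3 of them (triangles) sit at 2 separate levels that split a group.

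ENSRNOG00000024899 had the highest rank. In WT sham it stood at 0.0, 1.58, 0.160 and 0.0537 CPM, and in WT SNI at 16.5, 6.05, 5.19 and 2.31 CPM. In KO sham it stood at 0.624, 0.292, 0.0813 and 0.155 CPM, and in KO SNI at 6.30, 7.07, 4.35 and 2.38 CPM. All 8 SNI libraries were above all 8 sham libraries, and WT sham replicate 2 was the highest of the sham libraries. In WT the mean was 0.449 ± 0.759 CPM after sham and 7.51 ± 6.19 after SNI, and in KO it was 0.288 ± 0.240 and 5.03 ± 2.10 (SD, n = 4 each). The sham values rest on few reads, 30 counts over the 4 WT sham libraries and 25 over the 4 KO sham libraries. Its log2 difference was 3.34 in WT and 2.996 in KO, and 1.85 and 1.71 when 2 in place of 0.5 was added to the level.

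ENSRNOG00000066573, ranked 3, was among the most abundant of the 92 genes, with a mean of 102.7 CPM. It stood at 42.5, 72.7, 42.7 and 29.4 CPM in WT sham and at 168.6, 186.0, 206.5 and 106.2 CPM in WT SNI. In KO it stood at 51.4, 34.5, 27.8 and 36.9 CPM in sham and at 256.3, 175.2, 113.0 and 94.0 CPM in SNI. The groups did not overlap in either genotype, and the highest sham library was again WT sham replicate 2, while the highest SNI library was KO SNI replicate 1. Means were 46.8 ± 18.3 and 166.8 ± 43.3 CPM in WT and 37.7 ± 9.96 and 159.6 ± 73.2 CPM in KO (SD, n = 4 each), with log2 differences of 2.04 and 1.96. Its counts were not whole numbers in any of the 16 libraries. Such counts arise when reads that match several genes are divided among them, so its level is less certain.

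Further genes, taken from several ranks, are given as examples. Of those not shown, the genes ranked 7 and 8 overlapped in WT but not in KO. The gene ranked 4 had 0.698 to 2.72 CPM in WT sham and 2.52 to 9.73 CPM in WT SNI, which overlapped by 1 library each, and 0.772 to 2.41 against 4.04 to 8.70 CPM in KO, which did not. The gene ranked 10 had 8.23 to 9.76 CPM in WT sham against a lowest value of 13.5 CPM after SNI, and 7.86 to 9.16 CPM in KO sham against 14.4 to 27.7 CPM after SNI. Its sham libraries lay close together in both genotypes, and every SNI library was above them. Among the abundant genes, the one ranked 91 had 57.5 to 73.9 CPM in WT sham and 79.1 to 126 in WT SNI. In KO it had 57.8 to 68.0 CPM in sham and 82.4 to 122 in SNI, so it was also without overlap in both genotypes. The most abundant gene, ranked 60 with a mean of 131 CPM, was less regular: WT sham replicate 4, at 135 CPM, lay above WT SNI replicate 1, at 111 CPM.

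**Figure D2:**
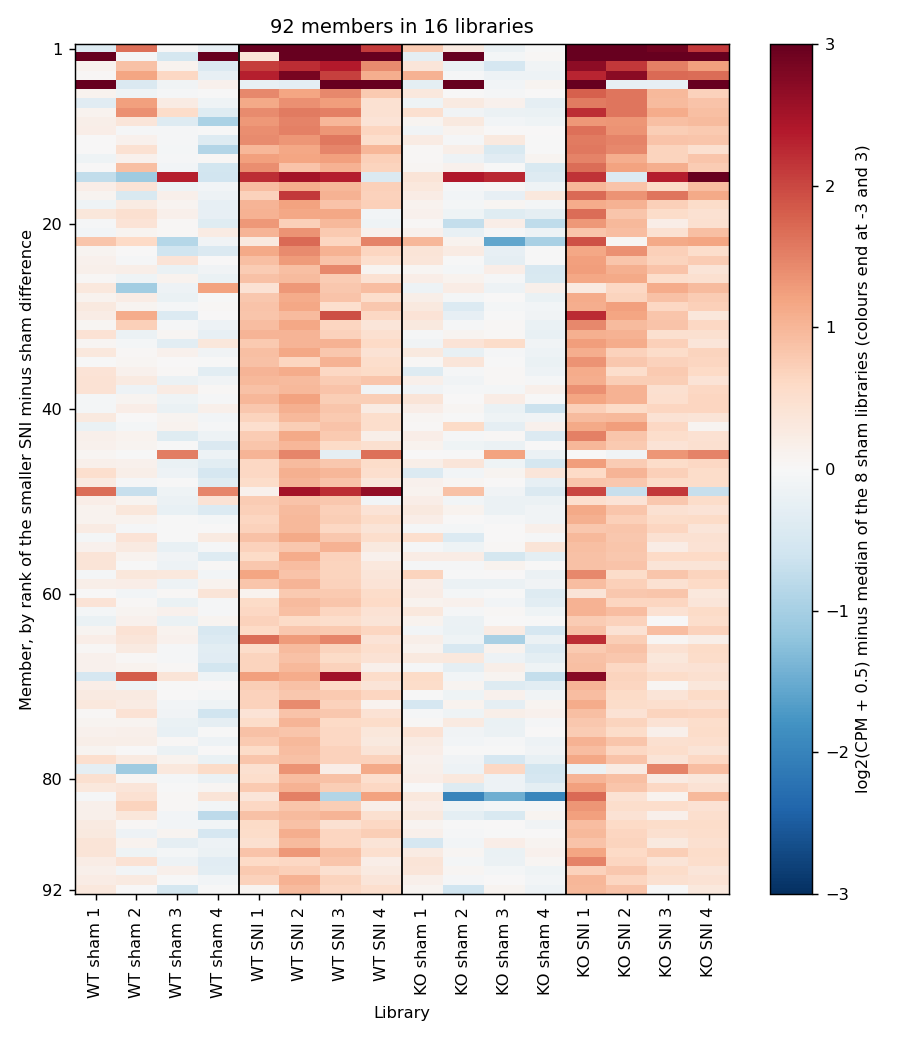
Level of the 92 genes (rows, by rank) in the 16 libraries (columns), as log2(CPM + 0.5) minus the median of the 8 sham libraries. Most rows are red in all 8 SNI columns and pale in the sham columns, while a few rows, among them ranks 2, 5 and 15, change colour between libraries of the same group.

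All 4 SNI libraries lay above all 4 sham libraries for 60 of the 92 genes in WT, for 70 in KO and for 49 in both. Over all 13946 IDs these shares were 2.8%, 2.72% and 0.789%. Since the same libraries chose the 92 genes, the gap between these shares is no evidence of its own. For 42 genes all 8 SNI libraries lay above all 8 sham libraries, as they did for 0.609% of all IDs. Another 32 genes were without overlap in only 1 genotype, 11 in WT and 21 in KO. The remaining 11 overlapped in both. Without WT sham replicate 2 the counts were 68 in WT, 70 in KO and 55 in both, and without KO SNI replicate 1 they stayed at 60, 70 and 49.

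Some genes that overlapped in both genotypes sat at 2 separate levels, both of which were found within 1 group. A gene was counted here when its libraries, put in order of level, left a gap of at least 1 on the log2 scale with at least 2 libraries on each side and at least 1 group on both sides. This definition was chosen after the values had been seen. It held for 3 of the 92 genes, ranked 2, 5 and 15, and for 124 of 13946 IDs (0.889%). A gene at 2 levels has a wide spread within groups, which the ranking by medians does not penalise.

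ENSRNOG00000012067, ranked 2, was at 0.120 to 0.659 CPM in 6 libraries and at 11.7 to 18.3 CPM in the other 10, with none between. In WT sham it stood at 18.3, 0.380, 0.120 and 12.3 CPM, and in WT SNI at 0.659, 16.1, 16.1 and 13.4 CPM. In KO sham it stood at 0.2496, 15.9, 0.366 and 0.414 CPM, and in KO SNI at 17.3, 15.2, 13.1 and 11.7 CPM. The high level was found in 3 of 8 sham and 7 of 8 SNI libraries, and only the KO SNI group was at one level throughout. Its log2 difference was 2.18 in WT and 4.04 in KO. In WT, where sham was split evenly between the levels, the difference was 0.24 without WT sham replicate 2 or 3 and 4.11 without WT sham replicate 1 or 4. In KO it ran from 3.93 to 4.14 with single libraries left out, the lowest value being that without KO SNI replicate 1 or 2.

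ENSRNOG00000032401, ranked 5, was at 1.91 to 3.10 CPM in 10 libraries and at 36.6 to 46.6 CPM in 6. In WT sham it stood at 44.9, 1.91, 2.52 and 3.10 CPM, and in WT SNI at 2.32, 2.18, 36.6 and 37.6 CPM. In KO sham it stood at 2.15, 46.6, 2.58 and 2.97 CPM, and in KO SNI at 43.8, 2.26, 2.25 and 43.1 CPM. The high level was found in 1 library of each sham group and 2 of each SNI group. The log2 differences of 1.63 and 1.75 therefore lie between the levels, where no library was measured. They turned to -0.22 in WT without WT SNI replicate 3 or 4, and to -0.24 in KO without KO SNI replicate 1 or 4. Its counts, too, were not whole in any of the 16 libraries. For the gene ranked 15 the high level, 13.8 to 26.6 CPM, was found in 3 of 8 sham and 6 of 8 SNI libraries, against 1.01 to 3.62 CPM in the others. The 3 genes did not part the libraries alike: 4 libraries were at the high level of all 3 genes and 3 at the low level of all 3.

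**Figure D3:**
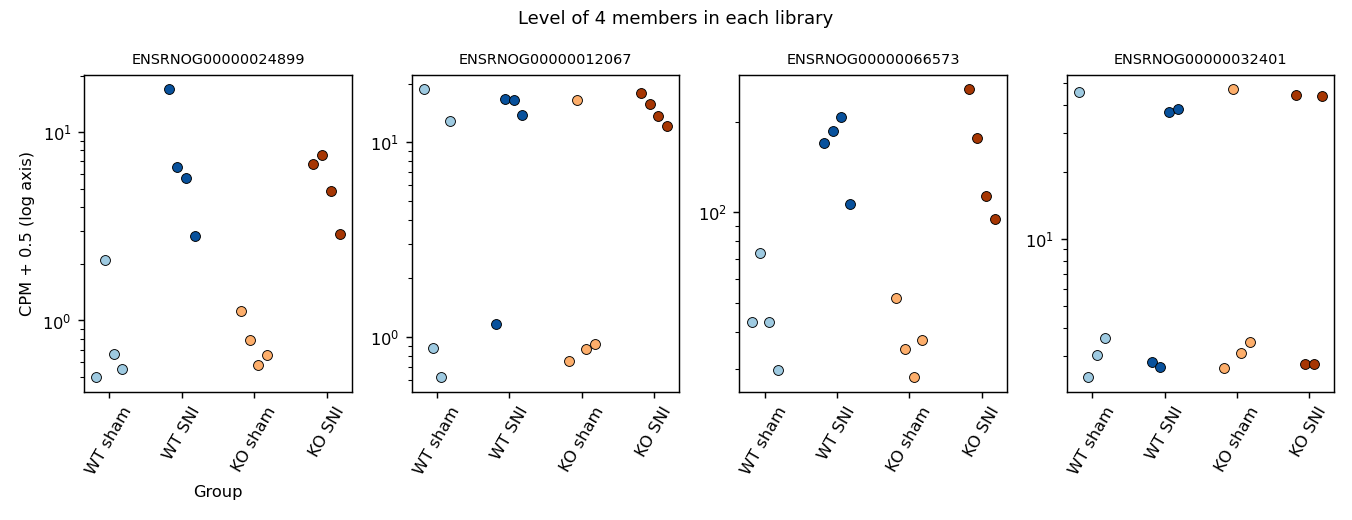
Level of the 4 genes with printed IDs in each library (CPM + 0.5, log axis), by group, 1 point per library. For ENSRNOG00000024899 and ENSRNOG00000066573 the SNI points lie above the sham points, while ENSRNOG00000012067 and ENSRNOG00000032401 sit at 2 levels within groups.

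Injury differences in WT and KO lay about as close together for the 92 genes as for all IDs. They were within 0.25 of each other on the log2 scale for 72 of 92. The gap between them had a median of 0.11 and an upper quartile of 0.21, both for the 92 genes and for all IDs. The difference in KO was the larger one for 43 of 92 (46.7%), against 45.5% of all IDs. The median of KO minus WT was -0.01. The rule used both values, so this closeness was not tested, and it was not particular to the 92 genes. The 2 values differed by over 1 for 4 genes. These were the genes ranked 15 (2.95 in WT, 0.94 in KO), 2 (2.18 and 4.04), 82 (0.58 and 2.41) and 49 (1.69 and 0.65), and sham and SNI libraries of all 4 overlapped in both genotypes. The gene ranked 82 ran from 2.01 to 12.8 CPM in WT SNI, and in KO sham it was at 5.25 CPM in replicate 1 against 0.679 to 1.18 CPM in the other 3.

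Whether the 92 genes stood at another level in KO than in WT could be tested, because averaging over the operations uses sums where the rule used differences. The libraries are the same 16, and sums and differences are fully separate only where sham and SNI libraries spread alike. All 92 passed the filter on low counts. In this comparison edgeR called 0 of the 92 genes (smallest adjusted p = 0.9998), with 0 at an unadjusted p under 0.05, and DESeq2 also called 0. Over all 15237 genes tested, edgeR called 2 (0.0131%), and 1.69% had an unadjusted p under 0.05. DESeq2 called 0.00997% of those it tested. The log2 fold change of the 92 genes, KO minus WT, ran from -1.18 to 0.55 with a median of -0.06, and 68 were lower and 24 higher in KO, while 50.5% of all genes were higher. The 95% confidence interval had a median half-width of 0.34. It lay wholly within 1 on either side of 0 for 81 genes and within 0.5 for 58. Genotype differences smaller than these bounds were not excluded. The intervals are not adjusted for the number of genes, so a call would need a larger difference than their width shows.

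After sham alone, edgeR again called 0 of the 92 genes in KO against WT (smallest adjusted p = 0.878), with 1 at an unadjusted p under 0.05, and 67 were lower in KO, with a median of -0.12. After SNI it called 0 (smallest adjusted p = 0.9999), with 0 at an unadjusted p under 0.05, and 49 were lower, with a median of -0.01. In each of these comparisons edgeR called 0.0131% of all genes. Its unadjusted p was under 0.05 for 3.89% of all genes after sham and for 1.23% after SNI. DESeq2 called 0 of the 92 genes in each, against 0.015% of all genes it tested after sham and 0.00997% after SNI. They use libraries that chose the genes. The excess of genes lower in KO varied with single libraries. By mean log2(CPM + 0.5), 64 of the 92 were lower in KO over all libraries, 51 without WT sham replicate 2 and 80 without KO SNI replicate 1. The share of all IDs that were higher in KO was 56.2%, 48.2% and 53.7% in the same order.

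The number of the 92 genes that edgeR called in the contrasts the rule used is given only as a description. It was 6 in WT and 9 in KO, all higher after SNI, against 0.0788% and 0.105% of all 15237 genes. Nothing is read from this, since these contrasts chose the genes. With single libraries left out the numbers ran from 0 to 12 in WT and from 0 to 18 in KO. In WT, 0 were left when the library omitted was WT SNI replicate 1, 2 or 3, WT sham replicate 1, 3 or 4, any KO sham library or KO SNI replicate 2, and 12 when it was WT SNI replicate 4. In KO, 0 were left without KO SNI replicate 1 or 2 or KO sham replicate 2, 3 or 4, and 1 to 4 without replicate 1 or 3 of either WT group. There were 14 to 18 without WT SNI replicate 2, KO sham replicate 1 or WT sham replicate 2 or 4. Without both libraries that stood apart, edgeR called 22 of the 92 genes in WT and 3 in KO. With all libraries, DESeq2 called 36 of the 92 genes in WT and 54 in KO, against 0.409% and 0.65% of all genes it tested.

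The genes also varied together among libraries of the same group. The medians used by the rule come from these libraries, so variation shared among them can also have helped to choose the genes. The mean of log2(CPM + 0.5) over the 92 genes ran in WT from 1.95 to 2.26 after sham and from 2.64 to 3.19 after SNI. In KO it ran from 1.86 to 2.19 and from 2.73 to 3.30. The lowest SNI library, WT SNI replicate 4, was thus above the highest sham library, WT sham replicate 1, as the choice of genes made likely. Summed over the 92 genes, the level after sham was 775 ± 78.5 CPM in WT and 729.6 ± 83.0 CPM in KO, and after SNI it was 1367 ± 212 and 1359.6 ± 271.9 CPM (SD, n = 4 each).

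**Figure D4:**
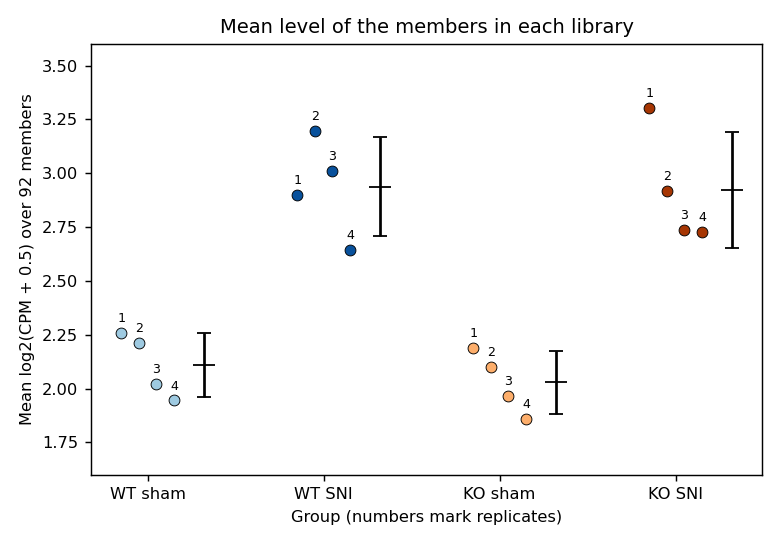
Mean log2(CPM + 0.5) over the 92 genes in each library (points, numbered by replicate), with the mean and SD of each group (bars, n = 4). Sham libraries lie between 1.86 and 2.26 and SNI libraries between 2.64 and 3.30, with KO SNI replicate 1 the highest.

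KO SNI replicate 1 was the highest of its group for 71 of the 92 genes (77.2%), against 39.6% of all IDs. It also had the largest total of all libraries and one of the lowest correlations with them, and the part of these in the result was not tested. In WT SNI, replicate 2 was the highest for 65 genes (70.7%, against 28.0% of all IDs) and replicate 4 the lowest for 72 (78.3%, against 28.0%). In KO sham, replicate 1 was the highest for 53 genes (57.6%, against 15.98%). In WT sham the highest place was shared, replicate 1 having it for 39 genes and replicate 2 for 40, while replicate 4 was the lowest for 45. So 1 library tended to lead for most of the genes in every group but WT sham, where 2 shared the lead. In KO sham, replicate 4 was the lowest for 37 genes (40.2%, against 25.6% of all IDs). In KO SNI, replicate 3 was the lowest for 40 genes (43.5%, against 31.4%) and replicate 4 for 39 (42.4%, against 25.1%). Replicate 4 thus had the lowest mean over the 92 genes in every group, and the part of replicate number in the shared variation was not tested.

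The same was seen gene by gene. After subtraction of group means, each gene was correlated over the 16 libraries with the mean of the other 91 genes. The median Pearson r was 0.70, and 72 of 92 genes (78.3%) had an r of 0.5 or more. For the other 13854 IDs the median r was -0.000065, and 9.22% had an r of 0.5 or more. These values share libraries and their totals and are given as a description. The median r of the 92 genes was 0.72 without WT sham replicate 2, 0.63 without KO SNI replicate 1 and 0.63 without both. Among genes of 10 CPM or more it was 0.79 for the 23 of the 92 and -0.03 for the other IDs.

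The gene ranked 52 followed the others most closely (r = 0.97). Its range was 7.99 to 9.01 CPM after sham and 12.4 to 16.8 CPM after SNI in WT, and 7.76 to 9.69 and 12.5 to 18.1 CPM in KO, with no overlap in either genotype. Other close followers were the abundant genes ranked 91 (r = 0.95), 76 (0.91) and 77 (0.90). At the other end stood 3 genes with an r of 0 or less, ranked 27, 45 and 79, and the 3 genes at 2 levels, with r from 0.01 to 0.06. The most abundant gene, ranked 60, also had a low r, 0.07. Of the IDs outside the 92, the 5 most like their mean had r from 0.89 to 0.93 and injury differences of 0.40 to 0.89 in WT and 0.32 to 0.56 in KO.

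**Figure D5:**
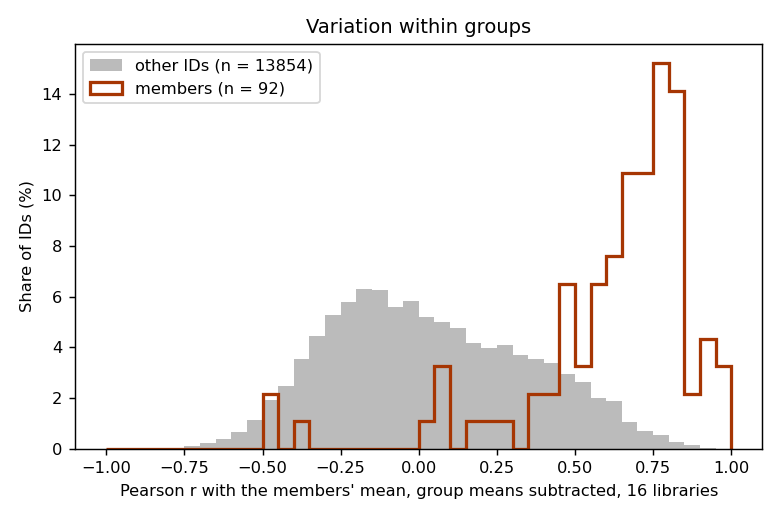
Pearson r of each gene with the mean of the 92 genes over 16 libraries after subtraction of group means (horizontal axis), as a share of IDs (vertical axis), for the 92 genes (line; each left out of its own mean) and the other 13854 IDs (grey). The median is 0.70 for the 92 genes and near 0 for the others.

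The spread between libraries of a group was wider for these genes than for most IDs, and more so after SNI. Among genes of 10 CPM or more, counting error is smaller than at lower levels but not absent. There the median SD of log2(CPM + 0.5) was 0.25 in WT SNI and 0.27 in KO SNI for the 23 of the 92, against 0.11 and 0.13 for all IDs. In sham it was 0.20 in WT and 0.17 in KO, against 0.16 and 0.12. These sets were not matched for level: 18 of the 23 had 10 to 50 CPM, while 4053 of all 9831 IDs had 50 or more. Choosing genes by a large difference can also favour a wide spread. Counts that were not whole in at least 8 libraries, as in genes that share reads with a copy, were seen in 9 of the 92 genes (9.78%) and 6.13% of all IDs. In 82 of the 92 genes every count was whole.

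Membership itself depended on single libraries. With each of the 16 libraries left out in turn, 72 to 85 of the 92 genes were again chosen, the fewest without KO SNI replicate 2, and 34 were chosen every time. At least 89 of the 92 had both differences above 0 in each of these settings. ENSRNOG00000024899 and ENSRNOG00000066573 were chosen in all 16, ENSRNOG00000012067 in 14 and ENSRNOG00000032401 in 12. Without both libraries that stood apart, 67 of the 92 were chosen again, and the median of the smaller difference was 0.60 in place of 0.66.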

How the data were processed

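Poly(A) RNA of 16 rat lumbar dorsal horn libraries was sequenced after stranded library preparation, per the labels' protocols. Per the submitters' processing notes, the tools were fastp 0.22.0, STAR 2.7.9a and RSEM 1.3.1 with the build mRatBN7.2; the sources used here do not say which step each served, nor name the annotation, a strand setting or filters. The authors deposited expected counts (estimated counts per gene) for 30560 Ensembl IDs, with 96.4% of values whole (tolerance 1e-09). The reference table (GRCr8, 47357 genes) carried 0 Ensembl IDs, so the gene lists and the rule for named genes could not be applied. That rule then allowed the 2 highest genes. The IDs of the next regular and the next 2-level gene were added after their values were seen. No sequence is printed.

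CPM used column totals. For tests, counts were rounded, filtered with filterByExpr of edgeR 4.0.16 in R 4.3.3 (minimum count 10, 15237 genes) and scaled by TMM. A single quasi-likelihood fit over the 16 libraries had 1 mean for each group, with Benjamini-Hochberg adjustment over all genes and a threshold of 0.05. Intervals for fold changes were taken from the F statistic. DESeq2 1.42.0 was an alternative. For the averaged KO against WT comparison, edgeR was also run on simulated counts (15148 genes). It recovered 79.1% of 1.5-fold, 88.1% of 2-fold and 100% of 4-fold changes, with 13 false calls. In that order, 67, 67 and 66 genes had been changed, while edgeR called 2 genes in the real comparison. With so many true changes the adjustment is less strict, so these shares overstate recovery where few genes differ. Recovery was not measured for the genes described here, so no power for them is read from these shares. The genes and lists were chosen with earlier results of these data known. The alternatives of scaling, filter, replicate block and libraries left out are described at the end.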

Additional observations from a re-analysis of the deposited data

Results flagged for a closer look

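The largest and smallest value in 24 sets of 4 libraries were compared with their neighbours. Each set was 1 group, for 1 of the 4 printed genes or a summary of the 92. A value far from its other 3 was held by 4 sets, and about 1 in 20 would by chance in genes not picked by their values. The printed genes were picked so, and ENSRNOG00000012067 and ENSRNOG00000032401 sit at 2 levels, so nothing is read from this number. For ENSRNOG00000024899 this was WT sham replicate 2, at 1.58 CPM, while the other WT sham values were 0.0 to 0.160 CPM. For ENSRNOG00000012067 it was KO sham replicate 2, at 15.9 CPM, while the rest of that group had 0.2496 to 0.414 CPM. For ENSRNOG00000032401 it was WT sham replicate 1, at 44.9 CPM beside 1.91 to 3.10 CPM, and KO sham replicate 2, at 46.6 CPM beside 2.15 to 2.97 CPM.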

How the results depend on the processing

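Of 15237 genes, edgeR called 12 after SNI in WT and 16 in KO. These counts were 66 and 100 with DESeq2, 46 and 70 with a replicate block, and 33 and 7 without WT sham replicate 2 and KO SNI replicate 1 together. With single libraries left out they ran from 0 to 20 in WT and from 3 to 33 in KO. KO against WT called 2 genes after sham, 1 with the replicate block and 1 without both libraries, and 1 to 2 with single libraries left out. After SNI and averaged over operations the range was 2 to 3. None of the 92 genes was called in these 3 comparisons under any of the 21 alternatives. The injury difference of ENSRNOG00000032401 in KO was -0.24 without both libraries together and ran from -0.24 to 3.74 with single libraries left out, and that in WT ran from -0.22 to 3.49. The rule kept 77 of the 92 genes with means in place of medians, 74 with a pseudocount of 2, 86 with TMM scaling, 86 with a minimum of 0.2 CPM and 44 with a minimum of 5 CPM, which only 44 of them reach. It kept 72 to 85 with single libraries left out. Correlations between libraries did not pair them by replicate number. Same-numbered libraries correlated from -0.36 to 0.23 after subtraction of group means, and 6 of 24 pairs had a value over 0.1. Only 1 of 16 libraries correlated best with its own number. The mean over the 92 genes nevertheless fell in order from replicate 1 to 4 in WT sham, KO sham and KO SNI. In WT SNI only its lowest place, replicate 4, was the same. With the replicate block, edgeR called 30 of the 92 genes after SNI in WT and 42 in KO, against 6 and 9 without it. The part of replicate number in these values was not tested. Low counts limit the genes near 1 CPM. The values without single libraries for overlap, co-variation and genotype counts were added after the data were seen.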
